A study of Homo sapiens with 6 samples.

Results

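Subunit genes of RNA polymerase II itself were examined in the chromatin maps of that enzyme. The subunit genes POLR2J and POLR2K were not among them. Members were the genes POLR2A, POLR2B, POLR2C, POLR2D, POLR2E, POLR2F, POLR2G, POLR2H, POLR2I and POLR2L, 10 of 20037 protein-coding genes, and their regions were the rows that the authors assigned to them by gene symbol. These were 228 of the 271336 regions in 4 lists. Chromatin immunoprecipitation sequencing (ChIP-seq) had been done with an antibody to RPB1, the largest subunit (anti-Rpb1, anti-RNAPII-CTD, ab817), and with an antibody to RPB1 phosphorylated at serine 2 of its C-terminal repeats (anti-Rpb1-pSer2, ab5095, called pSer2 here). The cells were untreated HepG2, a human hepatoma line, either SHP-1-WT (CRISPR control) or SHP-1-KO (CRISPR knockout of PTPN6, which encodes the tyrosine phosphatase SHP-1). The study made both as single-cell clones, with guides to exons of the phosphatase domain or with non-targeting guides, and which clone was used here is not given in the sources. Each antibody was used in 1 library per line, so that no difference between the lines has a replicate check, and clone, library and genotype cannot be told apart. The question behind the comparison was where polymerase sits on the genome with and without SHP-1.

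RNA polymerase II transcribes all protein-coding genes. Its catalytic center is formed by RPB1 and RPB2, RPB4 and RPB7 form a stalk on the core, and several small subunits are shared with RNA polymerases I and III. Serine 2 phosphorylation of the C-terminal repeats accumulates as the enzyme elongates and is usually densest near the ends of genes, whereas total RPB1 is usually densest just after the start, where the enzyme pauses.

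The RPB1 lists held 46045 regions in SHP-1-WT and 41605 in SHP-1-KO, and the pSer2 lists 102674 and 81012. Values are given as fold enrichments over input at the summit of a region, which are linear ratios with an unknown read depth behind them, and ranks within a list with 1 as the strongest. All regions of a list together covered 37.8 Mb for RPB1 in SHP-1-WT against 31.8 Mb in SHP-1-KO, and 67.6 Mb against 54.6 Mb for pSer2. PTPN6 had 3 RPB1 regions in SHP-1-WT, the strongest at 24.0, and 1 in SHP-1-KO at 17.2, which is no measure of the SHP-1 protein. For pSer2 it had 1 region in each line, at 4.03 in SHP-1-WT and 5.24 in SHP-1-KO. Of 10 hepatoma markers, 9 had an RPB1 region in SHP-1-WT and 7 in SHP-1-KO, with FOXA2 absent from both lists and APOA1 and APOA2 absent in SHP-1-KO. A pSer2 region was listed for 10 of them in SHP-1-WT and 9 in SHP-1-KO. Of 8 markers of other cell types, 2 (GFAP and SYP) had an RPB1 region in each line. For pSer2 it was 2 in SHP-1-WT and 1 in SHP-1-KO. The blood genes PTPRC, CD3E, HBB and SPI1 had no region in any list. Presence here is by the authors' assignment of regions to genes.

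Shown here are 4 promoter windows, because the strongest RPB1 region in SHP-1-KO (POLR2A), a start given to a neighbouring gene (POLR2H) and a start with more RPB1 in SHP-1-KO (POLR2E) lie there. Each window runs from 250 bases before to 50 after a RefSeq start in GRCh38.p14, 5′ to 3′ on the strand of the gene. Capitals mark matches to 6 motifs searched on both strands, which were the CCAAT box CCAAT, the GC box GGGCGG, the ETS core CCGGAAG, the NRF1 core (GCGC, any base, TGCGC), the TATA box TATAAA and the YY1 core GATGGCG.
POLR2A, chr17:7484116-7484415, + strand: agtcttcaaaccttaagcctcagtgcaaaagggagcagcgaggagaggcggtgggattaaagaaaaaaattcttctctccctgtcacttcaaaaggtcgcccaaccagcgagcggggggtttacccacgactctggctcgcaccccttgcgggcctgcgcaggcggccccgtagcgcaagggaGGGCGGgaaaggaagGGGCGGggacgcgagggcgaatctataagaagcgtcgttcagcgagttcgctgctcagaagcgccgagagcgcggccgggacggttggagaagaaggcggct
POLR2H, upstream start, chr3:184361460-184361759, + strand: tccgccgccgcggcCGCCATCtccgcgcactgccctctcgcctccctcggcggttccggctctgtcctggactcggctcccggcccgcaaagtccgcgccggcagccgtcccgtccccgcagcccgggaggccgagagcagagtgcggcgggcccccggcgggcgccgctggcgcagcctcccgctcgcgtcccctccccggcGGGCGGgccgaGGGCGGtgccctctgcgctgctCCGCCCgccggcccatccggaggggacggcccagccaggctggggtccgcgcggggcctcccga
POLR2H, downstream start, chr3:184363111-184363410, + strand: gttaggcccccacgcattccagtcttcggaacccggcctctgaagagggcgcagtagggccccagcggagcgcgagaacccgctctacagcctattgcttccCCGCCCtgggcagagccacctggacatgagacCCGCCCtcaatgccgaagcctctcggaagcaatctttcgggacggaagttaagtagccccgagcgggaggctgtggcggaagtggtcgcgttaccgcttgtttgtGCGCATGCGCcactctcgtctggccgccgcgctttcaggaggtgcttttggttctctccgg
POLR2E, chr19:1095326-1095625, - strand: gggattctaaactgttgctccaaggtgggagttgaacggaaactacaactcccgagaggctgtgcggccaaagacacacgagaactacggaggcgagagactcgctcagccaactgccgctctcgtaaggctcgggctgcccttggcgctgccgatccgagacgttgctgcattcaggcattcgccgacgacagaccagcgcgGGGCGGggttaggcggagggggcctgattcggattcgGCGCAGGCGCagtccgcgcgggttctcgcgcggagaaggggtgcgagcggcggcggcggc
RefSeq windows were matched for 8 members, 10 windows in all, with 2 each for POLR2F and POLR2H. The 2 POLR2F windows overlap, so their matches are the same letters counted again. A GC box was in 7 of the 10, against 45.0% of all 35116 promoters, and an NRF1 core in 5, against 5.78%. An ETS core was in 4, against 10.3%, and a YY1 core in 1, against 4.20%. The CCAAT box and the TATA box were in none, against 34.6% and 11.5% of all promoters. Some of the GC boxes sat at a similar distance from the start, with first bases at -67 and -52 in POLR2A, -55 in POLR2B, -51 in POLR2D, and -47 in POLR2E and in the upstream POLR2H window. Others lay elsewhere, such as at 35 in POLR2B, at -36 and -14 in the upstream POLR2H window and at -148 and -116 in the downstream one. A GC box with its first base between -70 and -40 was in 6 of the 10 windows and in 16.7% of all promoters, a range chosen after these matches were seen. The windows held a median of 27.5 CpG dinucleotides, against 14 over all promoters, and 63% G and C, against 58.7%. These matches describe letters in the windows and say nothing of binding.

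Every member had an RPB1 region over the start of its canonical transcript (Ensembl canonical, GENCODE release 44) in both lines when regions were placed by position whatever gene they had been assigned to. This was 10 of 10, against 57.6% of coding genes in SHP-1-WT and 55.3% in SHP-1-KO. By the authors' assignment, 9 of 10 members had a promoter region, within 1 kb of an annotated start, in each line, against 52.3% of genes in SHP-1-WT and 50.9% in SHP-1-KO. The difference was POLR2I. Fold enrichment over the starts ran from 17.5 to 87.1 in SHP-1-WT and from 10.9 to 56.2 in SHP-1-KO, so the members spanned a wide range. Among genes with an RPB1 region within 1 kb of their start, the median percentile of the members was 62.5 in SHP-1-WT (24.1 to 99.1) and 70.5 in SHP-1-KO (17.9 to 96.7).

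**Figure D1:**
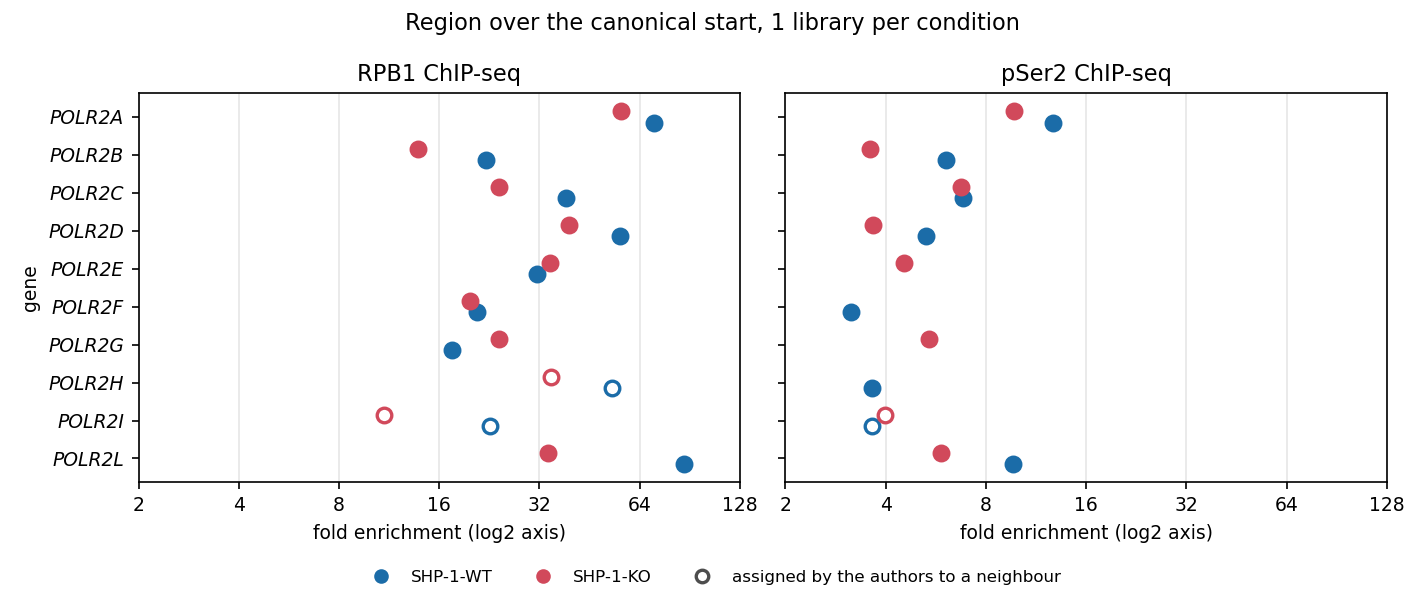
Fold enrichment (log2 axis) of the region over the canonical start of each gene, with RPB1 on the left and pSer2 on the right, 1 library per condition and 1 point per library. Open circles are regions that the authors assigned to a neighbouring gene, and a gene with no point had no region there. RPB1 points run from 10.9 to 87.1, POLR2L shows the widest gap between the lines, and for RPB1 POLR2E and POLR2G alone are higher in SHP-1-KO.

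POLR2A, on chromosome 17 from 7484366 to 7514179 on the + strand, encodes RPB1, the catalytic subunit that carries the C-terminal repeats and the protein both antibodies bind. Its start region was among the strongest of either list. RPB1 fold enrichment there was 70.5 in SHP-1-WT (rank 407 of 46045) and 56.2 in SHP-1-KO (rank 380 of 41605), a ratio of 0.797. It was in the top 0.884% of the list in SHP-1-WT and the top 0.913% in SHP-1-KO, so its place in the list was nearly the same although the fold enrichment was lower. The summit lay 45 bp after the start in SHP-1-WT and 181 bp after it in SHP-1-KO. The pSer2 region over the start reached 12.8 in SHP-1-WT (rank 1008) and 9.70 in SHP-1-KO (rank 1926), and it was the strongest pSer2 region of the gene in both lines. The genes whose strongest regions ranked most like POLR2A in all 4 lists were ECI1, ANKRD13D and FAAP100, at Euclidean distances of 1.77, 1.91 and 2.05 percentile points over 8096 genes.

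POLR2B, on chromosome 4 from 56978896 to 57031158 on the + strand, encodes RPB2, the other large catalytic subunit. Its RPB1 region over the start reached 22.2 in SHP-1-WT (rank 7790) and 13.8 in SHP-1-KO (rank 8767). The summit did not lie at the POLR2B start but at -1195 and -1142 bp from it, next to the start of NOA1, which lies 1290 bp away on the opposite strand. The region spanned both starts in each line, from 56976698 to 56979871 in SHP-1-WT and from 56977229 to 56979315 in SHP-1-KO. Its height therefore cannot be divided between them in either line. The pSer2 region over the start was at 6.08 in SHP-1-WT and 3.58 in SHP-1-KO.

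POLR2C (RPB3) takes part in the assembly of the core enzyme, and POLR2D (RPB4) and POLR2G (RPB7) encode the stalk. At the POLR2C start, on chromosome 16 from 57462679 to 57472009 on the + strand, RPB1 was at 38.5 in SHP-1-WT (rank 3524) and 24.1 in SHP-1-KO (rank 4491). At the POLR2D start, on chromosome 2 from 127843553 to 127858155 on the - strand, RPB1 was at 56.0 in SHP-1-WT (rank 1171) and 39.4 in SHP-1-KO (rank 1398). At the POLR2G start, on chromosome 11 from 62761580 to 62766710 on the + strand, RPB1 was at 17.5 in SHP-1-WT (rank 9322) and 24.2 in SHP-1-KO (rank 4475). The stalk genes thus stood apart from each other in level and in the direction of the difference between the lines. The ratio of SHP-1-KO to SHP-1-WT was 0.703 at POLR2D, near the median of 0.723 over all genes, and 1.38 at POLR2G. For pSer2 at these starts, POLR2C had 6.81 in SHP-1-WT and 6.74 in SHP-1-KO. POLR2D had 5.28 and 3.66, and POLR2G had no pSer2 region in SHP-1-WT and one of 5.40 (rank 11516) in SHP-1-KO.

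POLR2E (RPB5), POLR2F (RPB6), POLR2H (RPB8) and POLR2L (RPB10) encode subunits that all 3 nuclear RNA polymerases contain. At the POLR2E start, on chromosome 19 from 1086574 to 1095375 on the - strand, RPB1 was at 31.4 in SHP-1-WT (rank 5117) and 34.5 in SHP-1-KO (rank 2046). At the POLR2F start, on chromosome 22 from 37953699 to 37969312 on the + strand, RPB1 was at 20.8 in SHP-1-WT (rank 8226) and 19.8 in SHP-1-KO (rank 6078), with the start of C22orf23 98 bp before it on the opposite strand. At the POLR2L start, on chromosome 11 from 839721 to 842529 on the - strand, RPB1 was at 87.1 in SHP-1-WT (rank 104) and 34.0 in SHP-1-KO (rank 2146). POLR2L was therefore the strongest member in SHP-1-WT but not in SHP-1-KO, where POLR2A, POLR2D, POLR2H and POLR2E were above it. Its region ran for 3722 bp in SHP-1-WT and 3253 bp in SHP-1-KO and also covered the start of TSPAN4, 323 bp before the POLR2L start on the opposite strand. The pSer2 region over the POLR2L start showed the same order, with 9.65 in SHP-1-WT (rank 2272) and 5.85 in SHP-1-KO (rank 8852). At POLR2E a pSer2 region over the start was listed in SHP-1-KO alone, at 4.54, and at POLR2F in SHP-1-WT alone, at 3.14.

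The start regions of POLR2H and POLR2I were assigned to neighbouring genes. The POLR2H start, on chromosome 3 from 184361710 to 184368591 on the + strand, lies 105 bp from that of CLCN2, a chloride channel gene on the opposite strand. The RPB1 region over it, from 184360889 to 184364263 in SHP-1-WT, had a summit 143 bp after the POLR2H start and was assigned to CLCN2. It reached 53.0 in SHP-1-WT (rank 1421) and 34.7 in SHP-1-KO (rank 2029), whereas the strongest promoter region assigned to POLR2H itself was 8.73 and 8.60. POLR2I (RPB9), on chromosome 19 from 36113709 to 36114875 on the - strand, had no region assigned to it in any of the 4 lists. Its start, 593 bp from that of TBCB on the opposite strand, lay under an RPB1 region of 22.7 in SHP-1-WT (rank 7607) and 10.9 in SHP-1-KO (rank 10530), and under pSer2 regions of 3.65 and 3.98, all assigned to TBCB. Over all coding genes with matching names, the RPB1 region over the start was assigned to another gene for 19.2% in SHP-1-WT and 18.8% in SHP-1-KO. Among members it was 2 of 10 in each line.

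Summits over the starts sat just inside the genes. The median offset of the RPB1 summit was 43 bp after the start in SHP-1-WT and 47.5 bp in SHP-1-KO over the 10 members, against 44 bp and 42 bp over all genes with such a region. Besides POLR2B, the exception was POLR2I, with summits at -118 and -11 bp from the start. Of the regions that the authors classed as promoter, only 9 of 21 member regions of RPB1 in SHP-1-WT and 10 of 23 in SHP-1-KO had their summit within 1 kb of the canonical start. The rest had their summits farther away. Some of these regions still reached over the canonical start, as at POLR2B, or to within 1 kb of it, as at POLR2C and POLR2D. Others lay near starts of other annotated transcripts, as that class is defined.

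Between the lines, RPB1 at the promoter was lower in SHP-1-KO for 7 of the 9 members with an assigned promoter region in both. The median ratio of SHP-1-KO to SHP-1-WT was 0.797 over the members and 0.723 over 9771 genes, of which 85.7% were below 1. Most genes were thus lower in the SHP-1-KO library, members included. At 1.5 fold, 3 of 9 members were lower in SHP-1-KO (POLR2B, POLR2C and POLR2L), against 38.8% of all genes, and 0 of 9 were higher, against 1.88%. By position 5 of 10 were lower by that margin, with POLR2H at 0.654 and POLR2I at 0.481, against 39.8% of 11491 genes, and 0 of 10 were higher, against 1.16%. These shares are near those of all genes.

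Among members with an assigned promoter region in both lines, POLR2L and POLR2G lay near opposite edges of the distribution of ratios. POLR2L had the lowest, 0.390, at percentile 3.37 of all genes, and POLR2G the highest, 1.38, at percentile 97.0, with POLR2E at 1.10 and percentile 90.7. The others of these members were between percentiles 30.4 and 84.8. The highest of them was POLR2H, whose assigned region had its summit 5321 bp after the start in SHP-1-WT. By position, over 11491 genes, POLR2H was at percentile 37.2 and POLR2I, which had no assigned region, at percentile 8.88. Divided by the median over all genes, the ratio was 1.91 for POLR2G and 1.52 for POLR2E, both past 1.5 fold, and 0.540 for POLR2L. The median ratio was 0.678 over 14 subunit genes of RNA polymerases I and III, 0.751 over 25 general transcription factors and 0.779 over 22 Mediator genes, and past 1.5 fold 7, 9 and 5 of these were lower and 0, 1 and 0 higher.

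**Figure D2:**
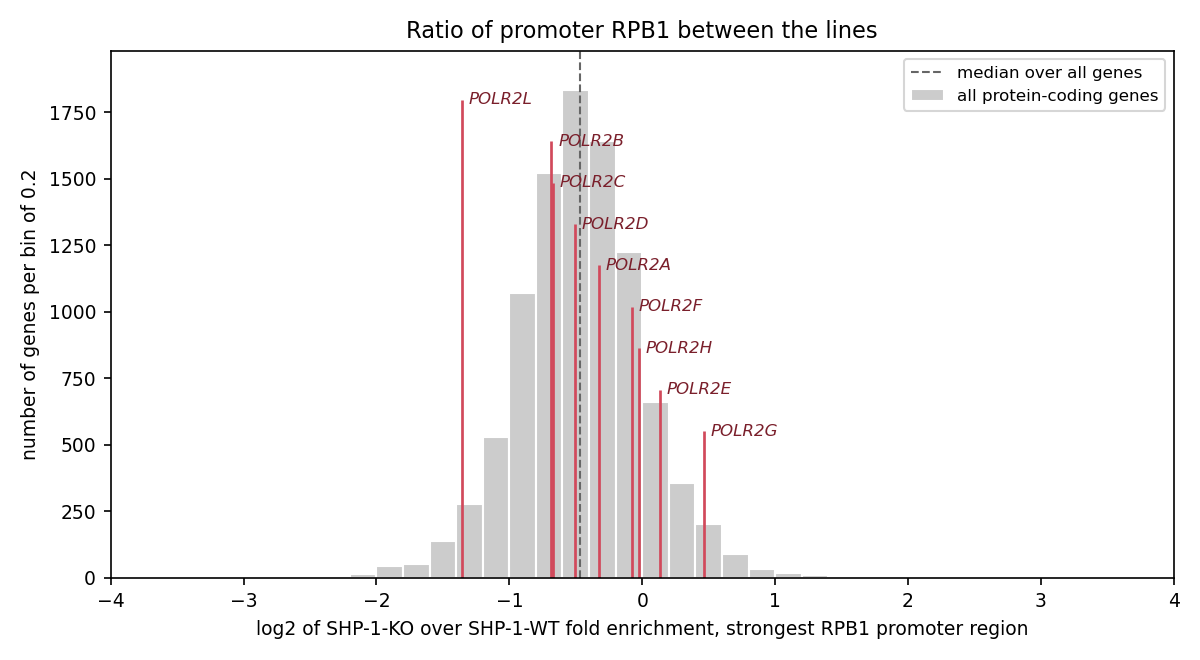
Number of protein-coding genes (bars, per bin of 0.2) by the log2 ratio of SHP-1-KO to SHP-1-WT fold enrichment of the strongest assigned RPB1 promoter region, with the 9 members that have one in both lines as red lines whose heights carry no value. The dashed line is the median over all genes. POLR2L lies at -1.36 and POLR2G at 0.46, with the other members between them.

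Serine 2 phosphorylated polymerase was spread over the genes and past their ends. By the authors' assignment members had 74 pSer2 regions in SHP-1-WT and 70 in SHP-1-KO, against 42 RPB1 regions in each line. The whole lists held 102674 and 81012 pSer2 regions, against 46045 and 41605 for RPB1. Of the member pSer2 regions, 42 and 39 had their summit in the body and 8 and 4 past the end. Another 16 and 18 had it more than 1 kb before the start. The summit lay within another coding gene for 17 in SHP-1-WT and 19 in SHP-1-KO. A pSer2 promoter region was assigned to 8 of 10 members in SHP-1-WT, against 38.0% of genes, and to 8 of 10 in SHP-1-KO, against 34.1%. By position 8 of 10 had a pSer2 region over the canonical start in each line, against 25.7% of genes in SHP-1-WT and 23.4% in SHP-1-KO. The median percentile of the strongest assigned region, among the strongest regions of all genes, was 89.9 in SHP-1-WT over 8 members (30.9 to 94.7) and 70.6 in SHP-1-KO over 9 (35.0 to 87.1). The comparison lists had medians of 45.9 to 51.0 in SHP-1-WT and 37.8 to 52.5 in SHP-1-KO. The members counted were not the same in both lines. POLR2G at percentile 48.1 had a region in SHP-1-KO alone, and the end region of POLR2E was assigned to ARHGAP45 there. Among members with a region in both lines, POLR2A, POLR2B, POLR2D, POLR2E, POLR2H and POLR2L had a lower percentile in SHP-1-KO. POLR2L went from 84.8 in SHP-1-WT to 55.3 in SHP-1-KO, and POLR2B from 88.0 to 76.3. POLR2C and POLR2F were higher, from 64.9 to 67.1 and from 30.9 to 35.0.

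Along POLR2A, pSer2 regions lay mostly in the downstream part of the gene. In SHP-1-WT 18 regions had their summit in the gene body, at 2.41 to 6.35, and 15 of these were 13927 bp or more after the start. Another 4 lay past the end, the farthest 3667 bp beyond it. In SHP-1-KO there were 10 in the body, at 3.22 to 4.92, the first of them 12753 bp after the start, and 1 past the end. The regions past the end covered nearly the same length, 2478 bp in SHP-1-WT and 2317 bp in SHP-1-KO. The SHP-1-KO region there ran from 7514314 to 7516630, a stretch divided among several regions in SHP-1-WT. The strongest region past the end was at 6.64 in SHP-1-WT and 3.33 in SHP-1-KO, a ratio of 0.501 at percentile 3.32 of 8821 genes. RPB1 itself had 3 body regions of 4.01 to 5.67 in SHP-1-WT and 1 of 4.22 in SHP-1-KO. The length covered by pSer2 regions assigned to POLR2A was 11840 bp in SHP-1-WT and 7102 bp in SHP-1-KO, a ratio of 0.600.

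POLR2B, the longest member at 52.3 kb, had few pSer2 regions in its body, 8 in SHP-1-WT at 2.93 to 4.08 and 4 in SHP-1-KO at 3.22 to 4.49. Its strongest region lay past the end in both lines, 2357 bp long at 10.6 in SHP-1-WT (rank 1730) and 2567 bp long at 7.81 in SHP-1-KO (rank 3623), within the annotated span of IGFBP7. Another 7 of its 20 assigned pSer2 regions in SHP-1-WT lay at -33308 to -16277 bp from its start, within REST, a gene upstream of it, as did 6 of 16 in SHP-1-KO. POLR2D ended in a single long pSer2 region, 5475 bp at 13.4 in SHP-1-WT (rank 851) and 4684 bp at 9.99 in SHP-1-KO (rank 1759), over its last part and its 3′ UTR. RPB1 was also present there, and the strongest RPB1 region reaching past the end was at 10.0 in SHP-1-WT and 4.86 in SHP-1-KO. That difference rests on a boundary, since a further SHP-1-KO region of 10.8, with its summit 14022 bp after the start, stopped just short of the end.

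At POLR2E the assignment of a region differed between the lines. In SHP-1-WT a single pSer2 region of 5982 bp reached from inside the gene past its end, at 14.0 (rank 733). It was assigned to POLR2E, although its summit lay 1063 bp past the end, within the annotated span of ARHGAP45. In SHP-1-KO several shorter regions lay over the stretch of this region. The strongest inside the gene, of 878 bp, was assigned to POLR2E at 7.05. One of 2390 bp over the end, with its summit 1148 bp past it, was assigned to ARHGAP45 at 14.0 (rank 614). Member and neighbour cannot be told apart at this end. By assignment the strongest pSer2 region of POLR2E had a ratio of 0.504 and the covered length a ratio of 0.358, from 6637 to 2377 bp. By position the end regions had a ratio of 1.01, and the covered length 0.718.

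**Figure D3:**
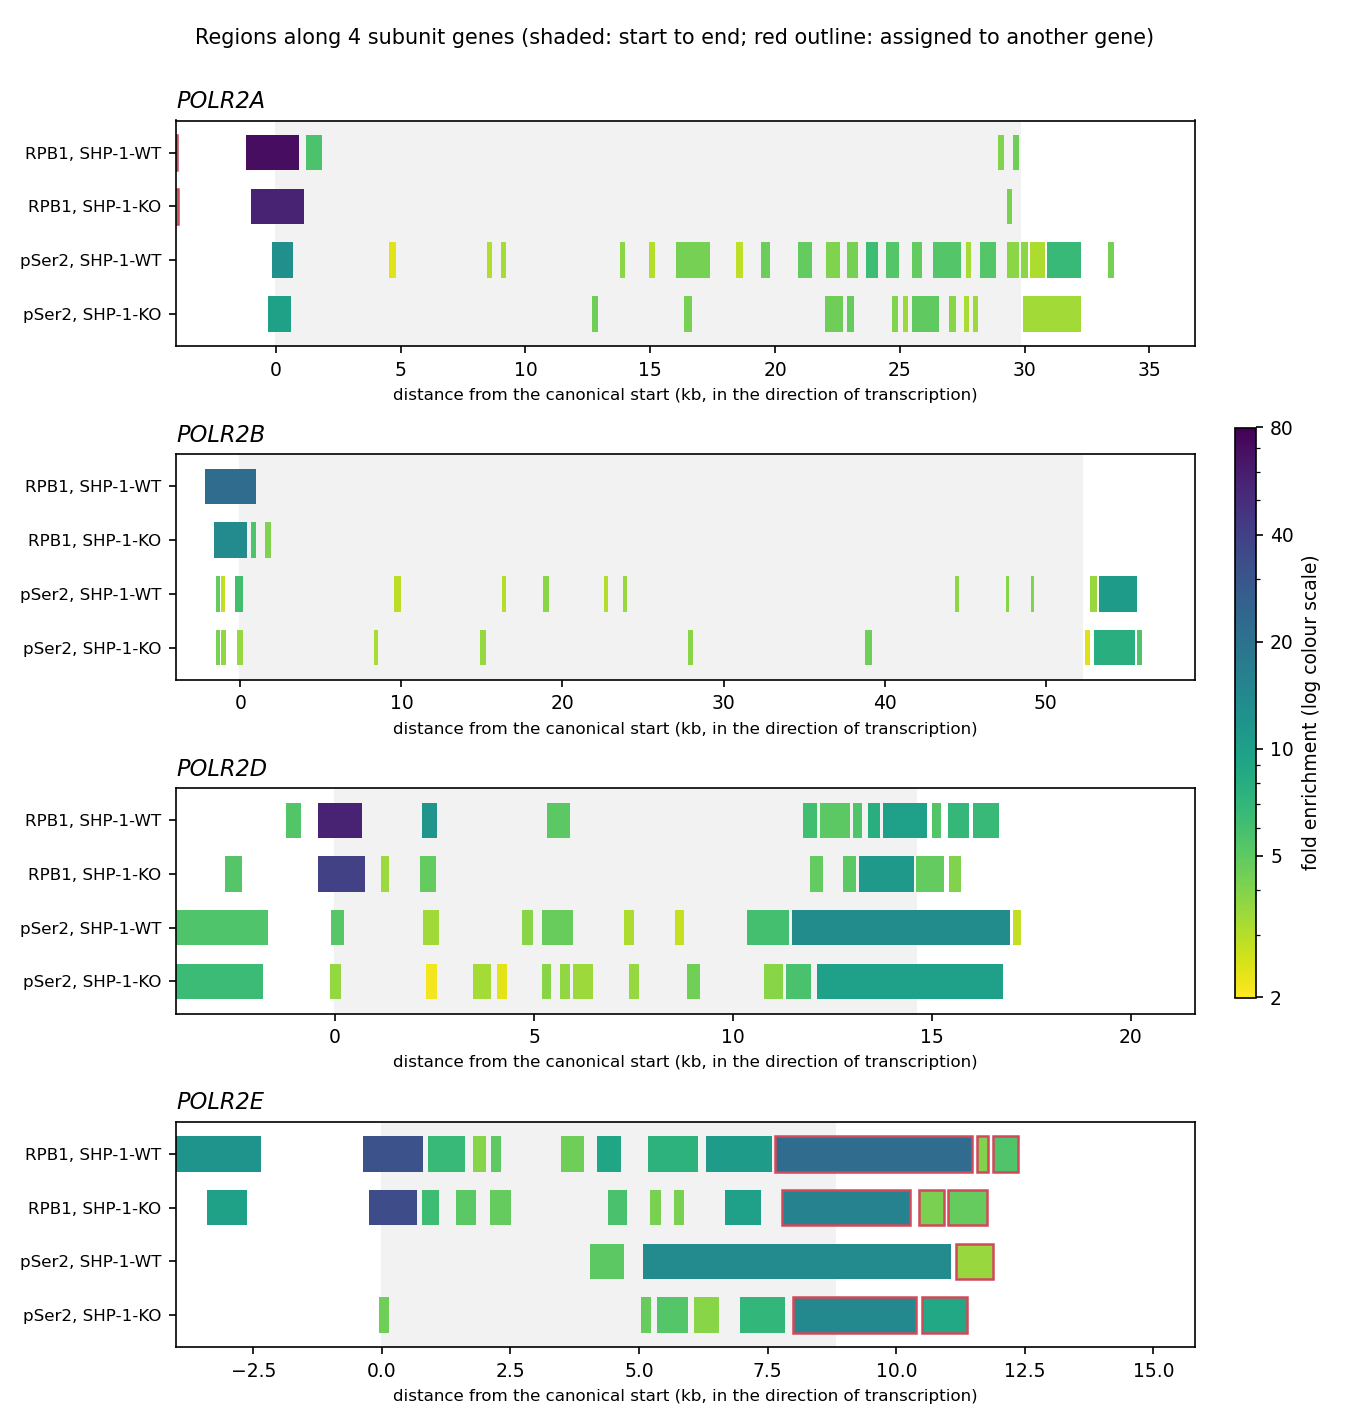
Regions along POLR2A, POLR2B, POLR2D and POLR2E in the 4 lists, by distance from the canonical start in kb in the direction of transcription, colored by fold enrichment on a log scale, with the gene shaded and regions assigned to another gene outlined in red. RPB1 is strongest at the starts and pSer2 regions lie along the genes and past their ends, and at POLR2E the end regions change their assignment between the lines.

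The remaining members lay close to other genes. The pSer2 region over the POLR2H end was assigned to THPO and reached 15.6 in SHP-1-WT (rank 507) and 15.9 in SHP-1-KO (rank 412). The strongest pSer2 region assigned to POLR2H was at 12.2 and 9.36, with its summit 1562 and 1554 bp after the canonical start, inside the downstream POLR2H window printed above. From inside POLR2L to past its end ran a pSer2 region of 5594 bp in SHP-1-WT and 5533 bp in SHP-1-KO. It was assigned to CD151 and was at 16.1 (rank 461) and 11.3 (rank 1200), with its summit past the POLR2L end. At the POLR2C end, a region assigned to DOK4 was at 6.67 and 5.16. POLR2F had 5 of its 6 pSer2 regions in SHP-1-WT and all 6 in SHP-1-KO before its start, within C22orf23, and none in its own body. Members and neighbours cannot be told apart at these shared ends.

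Over all members, placed by position, the strongest pSer2 region from the end of a gene to 5 kb beyond was lower in SHP-1-KO for 8 of 10, against 60.3% of 8821 genes, with a median ratio of 0.779 against 0.929. The ratio was 0.736 at POLR2B, 0.774 at POLR2C, 0.745 at POLR2D and 0.701 at POLR2L. It was 1.02 at POLR2H. At POLR2F it was 0.886, between regions that did not overlap and were assigned to MIR6820. Their summits lay 2083 bp past the end in SHP-1-WT and 448 bp in SHP-1-KO. At POLR2G (0.784, assigned to TAF6L) and POLR2I (0.975, assigned to OVOL3) the summits lay 3265 and 4451 bp past the end in SHP-1-WT, and members and neighbours cannot be told apart there. For RPB1, 7 members had such a region in both lines, with 5 of 7 lower in SHP-1-KO against 69.8% of 5188 genes, and a median ratio of 0.814 against 0.834. Only the POLR2D regions, and that of POLR2H in SHP-1-KO, were assigned to the member, and the others to neighbours. At POLR2G the RPB1 summits lay 4763 bp past the end in SHP-1-WT and 4801 bp in SHP-1-KO, assigned to TAF6L. At POLR2I the RPB1 regions of the lines did not overlap.

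**Figure D4:**
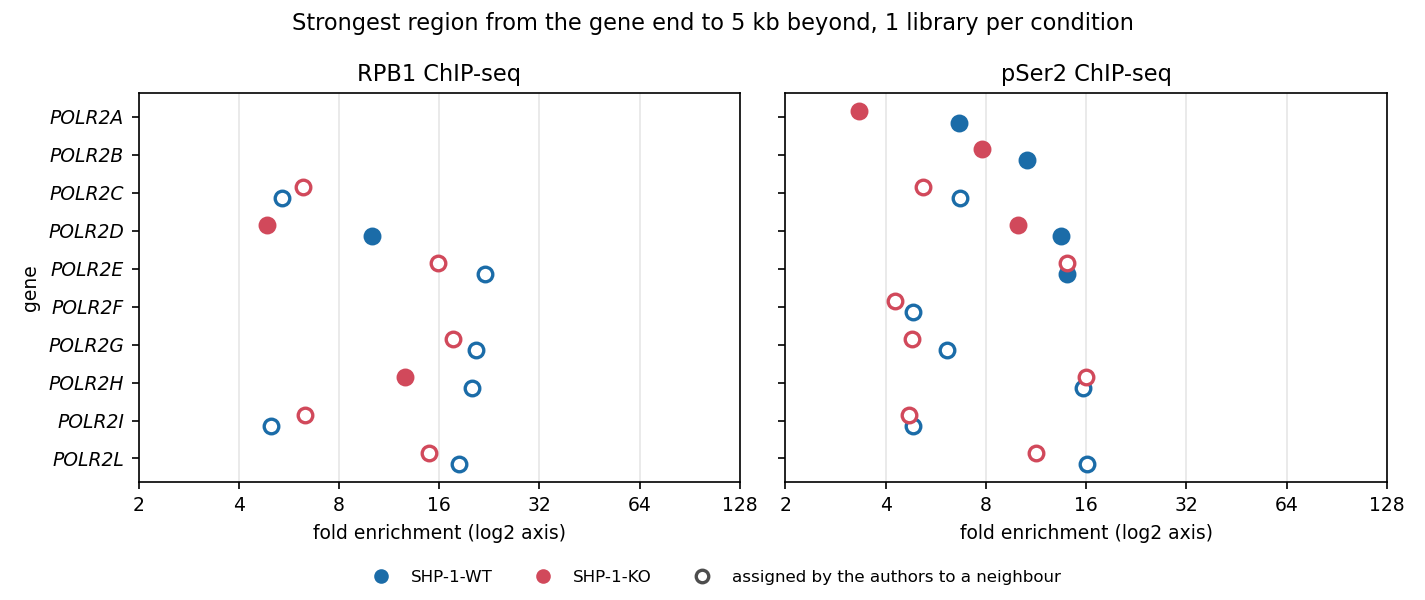
Fold enrichment (log2 axis) of the strongest region that overlaps the 5 kb after the end of each gene, RPB1 on the left and pSer2 on the right, 1 point per library, with open circles for regions that the authors assigned to a neighbouring gene. The pSer2 points of POLR2E and POLR2H are nearly the same in both lines, at 14.0 and 14.0 and at 15.6 and 15.9, and the other members are lower in SHP-1-KO.

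The strongest assigned pSer2 region lay in the last 25% of the gene or beyond its end for 3 of 8 members in SHP-1-WT, against 44.5% of genes, and for 3 of 9 in SHP-1-KO, against 44.4%. These were POLR2B, POLR2D and POLR2E in both lines. By position, counting regions up to 5 kb beyond the end whatever their assignment, it did so for 8 of 10 in SHP-1-WT, against 68.6% of genes, and for 7 of 10 in SHP-1-KO, against 67.9%. The covered length was at least 1.5 fold shorter in SHP-1-KO for 2 of 8 members, POLR2A and POLR2E, against 35.8% of 9207 genes, and longer by that margin for 0 of 8, against 7.57%. The median ratio of covered length was 1.01 over the members and 0.797 over all genes. That order depended on the assignment. With regions placed by position it turned, with 0.721 over 8 members against 0.815 in the authors' gene spans and 0.718 over 9 against 0.818 on canonical transcripts. Among regions whose −log10 q-value was 5 or more, the medians were 0.870 and 0.819. By assignment it was 0.932, 0.873 and 0.687 over the RNA polymerase I and III, general transcription factor and Mediator lists.

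Most member regions were found in both lines. Of the 42 RPB1 regions in SHP-1-WT, 29 (69.0%, 95% Wilson interval 54.0 to 80.9, counting error only) overlapped an RPB1 region in SHP-1-KO by at least 1 bp, against 61.9% of all regions. For pSer2 it was 44 of 74 (59.5%, 48.1 to 69.9), against 52.2%. In the other direction, 30 of 42 RPB1 regions in SHP-1-KO (71.4%, 56.4 to 82.8) overlapped one in SHP-1-WT, against 74.9%, and 52 of 70 pSer2 regions (74.3%, 63.0 to 83.1), against 69.9%. All 4 intervals covered the share of all regions. The SHP-1-WT regions with no overlap were weak, with a median of 4.51 and a highest value of 7.01 for RPB1 and 3.64 and 6.35 for pSer2, against medians of 7.81 and 4.57 for those with one. All RPB1 regions over the starts overlapped between the lines. In SHP-1-WT 11 of 23 pSer2 regions of POLR2A and 10 of 20 of POLR2B had a counterpart, against 52.2% of all. In SHP-1-KO it was 9 of 12 for POLR2A and 10 of 16 for POLR2B, against 69.9% of all.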

How the data were processed

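RPB1 and pSer2 were profiled with 1 library per line. The 2 input libraries were not analysed here. In the authors' MUGQIC pipeline, Trimmomatic trimmed the reads, BWA placed them on hg38, and MACS2 called peaks per library over the matching input (versions not given in the sources used here). Each deposited list gives a fold enrichment at the summit, which is a ratio, −log10 p- and q-values, a score, a length and the authors' nearest gene. A deposited table of differential RPB1 regions holds the authors' own comparison (p-values and directions of windows) and was not used. No counts were used, so depth is unknown.

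Regions were ranked by fold enrichment, and gene IDs were matched to 20037 RefSeq protein-coding genes. A gene's value was its strongest region, and genes with none count as absent. The last 25% was measured on the authors' gene coordinates. Of 40 transcripts the authors assigned to members, 39 were in GENCODE release 44 and 33 had the same ends, so placement by position used its canonical transcripts on the same build. Each member is named, with neighbours at its start or end, and the 3 genes nearest POLR2A in percentiles of the 4 lists. The targeted gene PTPN6 and lists of cell type markers describe the samples. Further genes (NOA1, IGFBP7, REST, THPO, CD151, DOK4, TAF6L, OVOL3, ARHGAP45, MIR6820) were named after their values were seen, where they hold or adjoin a region at a member. Members and lists were chosen with earlier results of these data known. Functions were tested on simulated lists. Python 3.11.15, pandas 2.3.3, NumPy 2.4.6, SciPy 1.17.1 and matplotlib 3.10.9 were used. The alternatives were a −log10 q-value of at least 5, other placements, merged intervals, other ranks, scalings, folds, overlaps and gene ends. Sequences of 4 of the 10 promoter windows are printed, and the other 6 are not reported here.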

Additional observations from a re-analysis of the deposited data

How the results depend on the processing

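With regions placed by position on canonical transcripts, an alternative chosen after seeing the data, 5 members in place of 3 were at least 1.5 fold lower in SHP-1-KO for promoter RPB1, and the strongest pSer2 region lay in the last 25% of the gene or beyond its end for 8 members in SHP-1-WT and 7 in SHP-1-KO in place of 3 and 3. Placed in the authors' gene spans, this count was 5 in SHP-1-KO, the median percentile of RPB1 in SHP-1-KO was 79.2 in place of 66.6, and 0 members in place of 2 had a shorter pSer2 length. The ratio of promoter RPB1 at POLR2H was 0.654 in place of 0.985 by either placement, since the region assigned to CLCN2 was then counted. The pSer2 length ratio at POLR2F was 0.542 on canonical transcripts in place of 1.02. Divided by the median over all genes, 1 member was lower and 2 were higher for promoter RPB1, and 1 was shorter and 1 longer for pSer2 length. Past 2 fold, 1 member was lower and 1 shorter. A −log10 q-value of at least 5 left 26 of 42 RPB1 regions in SHP-1-KO, 42 of 74 pSer2 regions in SHP-1-WT and 37 of 70 in SHP-1-KO. A reciprocal overlap of 50% left 42.9% of RPB1 and 33.8% of pSer2 regions shared, in place of 69.0% and 59.5%. The promoter class already ended 1 kb from a start, so that alternative changed no value. Of 170 values under alternatives, 148 stayed within the limits (a factor of 1.5, 10 percentile points or the Wilson interval), and 22 moved past them. No ratio past 1.5 fold turned direction. Of all 86 ratios under alternatives, whatever their size, 16 changed side of 1. Each of these had been nearer to 1 than 1.5 fold, and 6 of them were divided by the median over all genes. Among them, the members' median RPB1 ratio became 1.10 in place of 0.797 when divided, and their median pSer2 length ratio, 1.01, became 0.870 at the stricter q-value, 0.721 in the authors' spans and 0.718 on canonical transcripts. The POLR2C length ratio became 0.724 in place of 1.05 by either placement, and the POLR2H RPB1 ratio 1.45 in place of 0.985 with the strongest region anywhere. No paired analysis was possible because each condition had 1 library, and no replicate could be left out. Weak regions near the threshold depend on depth, which is unknown.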
